A study of Mus musculus with 36 samples.

Results

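Gut of mouse embryos at E14.5 was examined in the 6 libraries labelled Ret null at that stage, out of 36 libraries in all. The 6 were selected on a measured value, the RNA level of Ret itself: 3 libraries (female 2, male 2 and male 3) held under 1 FPKM of Ret and 3 (female 1, female 3 and male 1) held 1 FPKM or more. FPKM is the number of sequenced fragments per kilobase of transcript, scaled to the depth of the library. Because Ret chose the sides, all differences between them are given as a description, with every library's value and no test. Values are listed in the order female 2, male 2, male 3 for the libraries without Ret and female 1, female 3, male 1 for those with Ret.

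All 36 libraries came from C57BL/6J mice, and the whole study compared wild-type and Ret null gut at 3 embryonic stages (E10.5, E12.5, E14.5), each genotype and stage having 3 female and 3 male libraries. The 6 libraries described here carry the same genotype label, Ret Null, and received no treatment. The labels do not give the design of the null allele, how embryos were genotyped, how many embryos went into a library or where the gut was cut at either end. Reference ranges come from the 6 wild-type libraries of E14.5, and tests come from the E12.5 libraries (6 labelled Ret null, 6 wild type) and from wild type alone, none of which entered the split.

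RET is the receptor tyrosine kinase through which GDNF, presented by the co-receptor GFRA1, acts on the neural crest cells that enter the gut. These cells migrate along the gut wall, divide, and give rise to the neurons and glia of the enteric nervous system, the network that controls gut movement and secretion. Gut that lacks RET is known for lacking enteric neurons over most of its length, the condition that underlies Hirschsprung disease in humans.

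Ret (chromosome 6, 118151748 to 118197744, mm10) stood at 0.0587, 0.0221 and 0.0111 FPKM in the libraries on one side and at 6.49, 5.76 and 6.03 FPKM on the other. No library lay between 0.0587 and 5.76 FPKM, so any threshold in that interval gives the same sides. The 6 wild-type libraries held 4.70 to 11.5 FPKM. The 3 libraries with Ret lay inside that range, but its low end was wild-type male 2 alone: the other 5 wild-type libraries held 8.61 to 11.5 FPKM, above all 3. Whether they came from embryos of another genotype cannot be told from these files. RNA of sex-linked genes matched the labelled sex in all 6 libraries (Xist 71.0 to 113 FPKM in the females, Ddx3y 14.01 to 14.95 FPKM in the males). Among the libraries used for tests, E12.5 wild-type females 1 and 2 held both Xist (49.1 and 52.2 FPKM) and Ddx3y (4.91 and 4.98 FPKM), unlike the other E12.5 libraries, and they entered the fits as 1 sample under the female label.

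Judged from how wide the deposited confidence intervals are, these 6 libraries held 6.17 to 8.06 M fragments (M, mega), E14.5 wild type 4.86 to 6.76 M and E12.5 17.4 to 40.9 M. Female 3, a library with Ret, stood apart from the other 5: its values spread 2.51 to 2.80 times the counting noise against each of them, compared with 1.05 to 1.74 times among the rest. Males 2 and 3, both without Ret, differed from each other by only 1.05 times that noise, with 1.59% of genes beyond 3 SD, above the 1% under which a pair was counted as 1 sample. The count of genes is therefore also given without female 3 and with males 2 and 3 averaged.

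Genes of neurons led the difference between the sides. Of 13265 genes that reached 1 FPKM in at least 3 of the 6 libraries, 136 (1.03%, Ret among them) were lower in all 3 libraries without Ret than in any library with it, by 2-fold or more between the medians of log2(FPKM + 1). No gene (0%) was higher by the same rule. Genes past this rule are called separated below. Of the 136, 36 differed by 4-fold or more, and the median difference was -1.37 on the log2(FPKM + 1) scale, against -0.0037 over all genes counted. The smallest difference inside the threshold was -1.01 and the largest just outside it was -0.99. In whole gut, fewer cells of a type and less RNA per cell cannot be told apart.

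**Figure D1:**
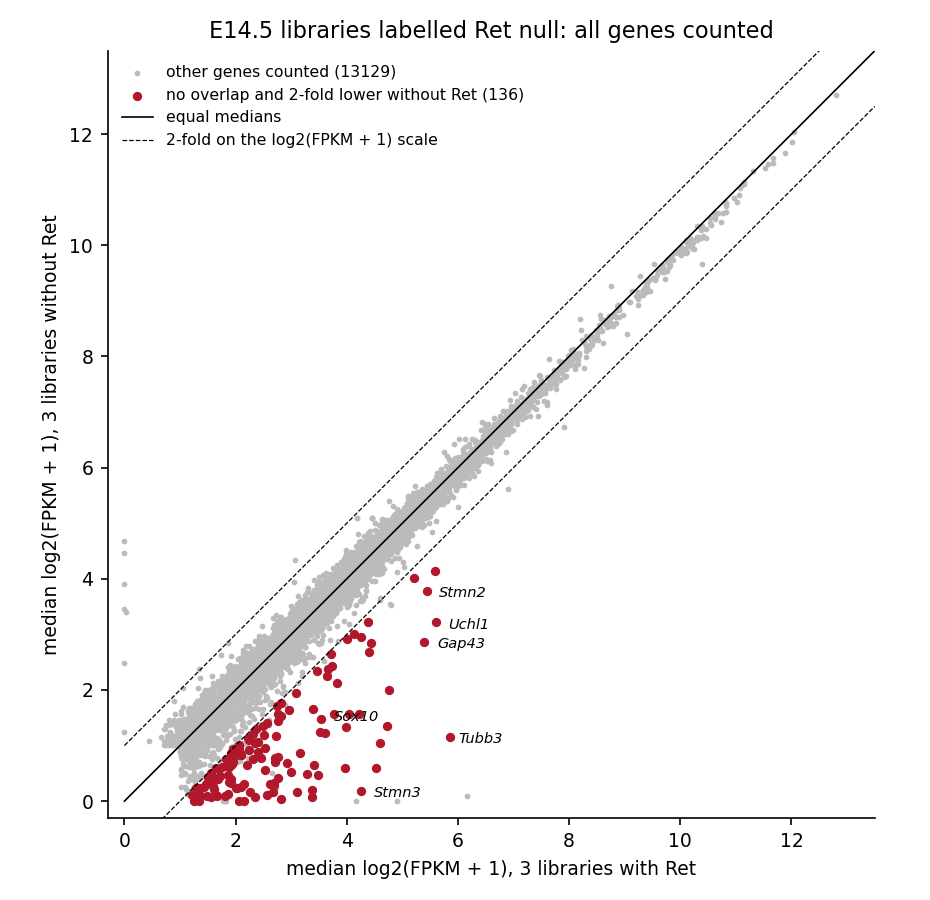
Median log2(FPKM + 1) in the 3 libraries without Ret (vertical axis) against the 3 with Ret (horizontal axis), one point per gene counted at E14.5. The 136 genes in red had no overlap between the sides and lay at least 2-fold below the line of equal medians; gray points far from the line overlap between libraries, as sex-linked genes do.

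Without overlap but with no minimum size of difference, 1126 genes (8.49%) were lower and 884 (6.66%) higher without Ret, so small differences ran both ways. The largest of the higher ones, Sned1, differed by 0.69. Leaving out 1 library at a time gave 135 to 167 lower genes and 0 to 7 higher ones; with 2 libraries on a side, absence of overlap is easier to reach. Without female 3 there were 150 lower genes, 134 of them among the 136, and with males 2 and 3 averaged there were 134, 127 of them among the 136. Of the 136, 71 were under 1 FPKM in every library without Ret and so were counted only through the libraries where they were high.

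The transcription factors that specify enteric neurons were among the genes furthest apart. Tlx2, a homeobox factor of crest-derived neurons, was at 0.443, 0.0525 and 0 FPKM against 9.34, 11.7 and 8.89 FPKM. Phox2a, a homeobox factor of autonomic neurons, was at 0.825, 0.276 and 0.397 FPKM against 6.78, 9.25 and 8.70 FPKM. Dlx2, a distal-less homeobox factor, reached 1.477 FPKM in female 2 but 0.114 and 0.0701 FPKM in males 2 and 3, against 3.79, 3.16 and 3.85 FPKM. Its neighbour Dlx1 was at 0.0502 to 0.372 FPKM against 2.61 to 3.21 FPKM. No value of these genes in a library without Ret reached the lowest value with it.

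Of 24 counted members of the list of enteric neurogenic transcription factors, 9 were lower by the 2-fold rule and 10 without overlap, and the median difference was -0.86. Insm1, a zinc finger factor of neuronal and endocrine precursors (0.941 to 1.41 against 3.29 to 4.08 FPKM), and Hoxb5, a homeobox gene active in vagal crest and in gut mesenchyme (7.38 to 9.06 against 18.05 to 22.0 FPKM), were the smaller ones among the 9. Hand2, needed for terminal differentiation of enteric neurons and also expressed in mesenchyme, was lower without overlap but by under 2-fold (21.4 to 24.1 against 31.2 to 47.1 FPKM). Isl2 and Ebf1 went the other way: Isl2, a LIM homeobox factor, was at 4.16 to 5.93 FPKM without Ret and 2.65 to 2.83 FPKM with it, and Ebf1 at 2.95 to 3.20 against 1.65 to 1.87 FPKM.

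Genes of the crest progenitor followed at smaller differences. Sox10, the SRY-box factor that keeps crest cells multipotent and later marks glia, stood at 2.51, 1.37 and 1.77 FPKM without Ret and at 10.6, 10.53 and 12.4 FPKM with it, a difference of -2.07. Its relative Sox8 was at 1.22, 0.556 and 0.683 FPKM against 4.22, 3.06 and 3.97 FPKM. Foxd3, a forkhead factor of crest progenitors, was at 0.693, 0.328 and 0.367 FPKM against 1.70, 2.41 and 2.28 FPKM. All 3 genes kept measurable RNA in every library without Ret. They were among the 4 of 12 counted members of the crest progenitor list that separated. Of the rest, Ets1 (22.1 to 24.9 against 19.6 to 26.3 FPKM), Zeb2 (14.4 to 15.4 against 10.4 to 14.7 FPKM) and Sox2 (7.64 to 8.97 against 6.99 to 9.30 FPKM) overlapped, and these genes are also active in gut epithelium or mesenchyme.

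Glial genes were lower in part. Fabp7, a fatty acid binding protein of radial and enteric glia, stood at 6.15, 5.43 and 3.59 FPKM without Ret and at 20.1, 17.5 and 23.7 FPKM with it. Fabp7 was the only 1 of 7 counted members of the glia and Schwann cell list past the 2-fold rule. With no minimum size, 2 of the 7 were lower and 0 higher without overlap, and the median of the list was -0.28. Over all genes counted 1.03% were separated and 8.49% were lower without overlap. Summed over the 13 members of the list, the libraries held 72.0 to 73.2 FPKM without Ret and 88.2 to 103 FPKM with it. S100b (0.273 to 0.749 FPKM without Ret) and Gfap (0.103 to 0.133 FPKM) were too low on both sides to be counted.

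Ligands and receptors that act on crest cells mostly did not separate. Gdnf, the RET ligand made by gut mesenchyme, stood at 7.83, 8.91 and 8.85 FPKM without Ret and at 7.33, 6.95 and 6.50 FPKM with it; all 6 values lay above the 1.89 to 5.08 FPKM of wild type. Gfra1, the GDNF co-receptor, which mesenchyme also makes, overlapped at 18.1, 19.9 and 17.8 against 22.9, 19.9 and 24.8 FPKM. Of the 7 counted RET ligands and co-receptors, 0 were separated, 0 were lower without overlap and 2 (Gdnf and Artn) were higher without overlap. Ednrb, the endothelin receptor of migrating crest cells, was lower without overlap but by under 2-fold, at 21.1, 27.6 and 28.2 FPKM against 47.0, 36.6 and 45.4 FPKM, and its ligand Edn3 overlapped (9.63 to 11.7 against 9.92 to 11.9 FPKM). None of the 11 counted neurotrophin and neuregulin ligands and receptors was separated; Erbb3, the neuregulin receptor of glial precursors, was at 11.8 to 13.6 FPKM without Ret and 9.69 to 16.3 FPKM with it.

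**Figure D2:**
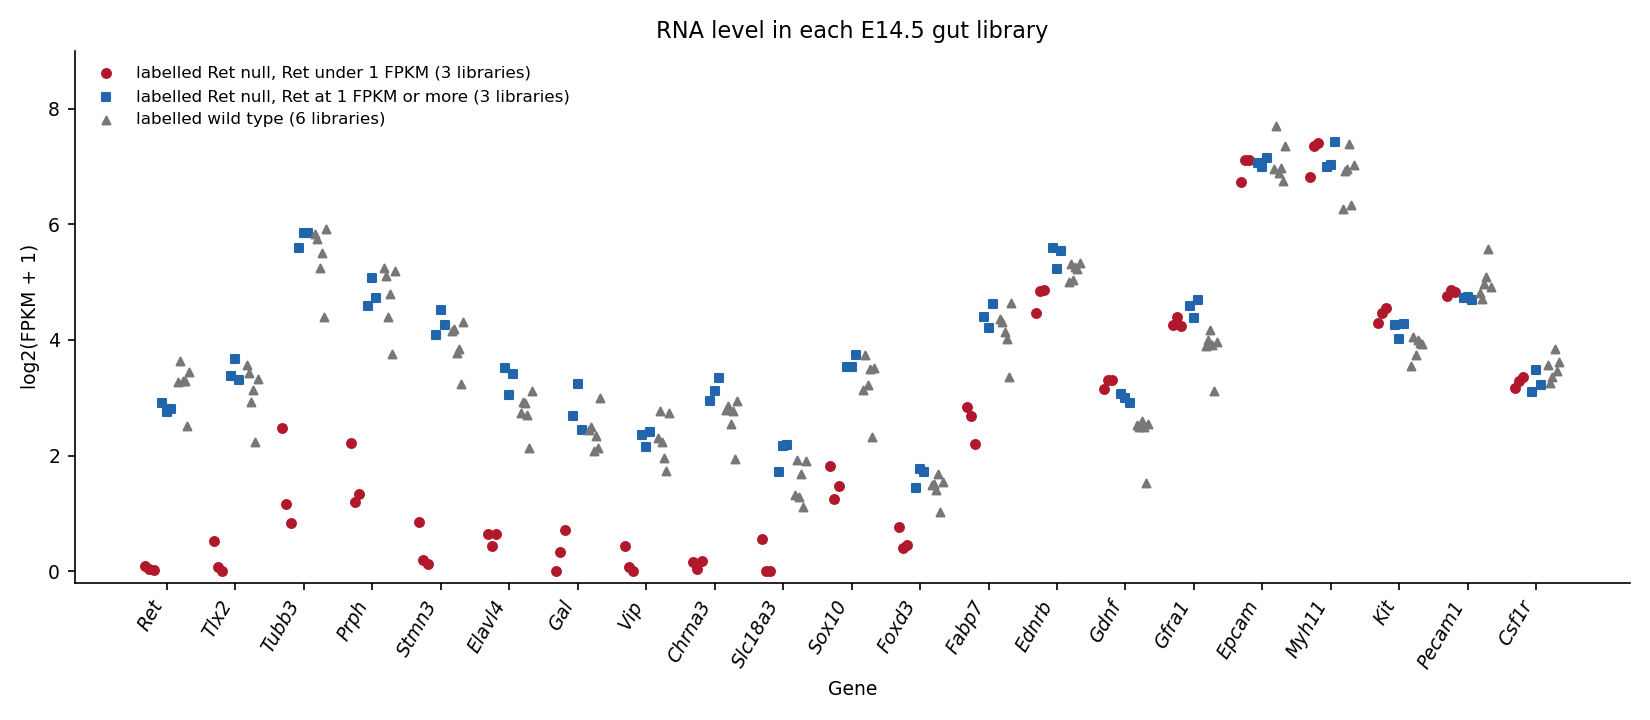
Level of 21 genes as log2(FPKM + 1), one mark per E14.5 library: 3 labelled Ret null without Ret (circles), 3 labelled Ret null with Ret (squares) and 6 wild type (triangles). Neuronal genes from Tlx2 to Slc18a3 sit low without Ret and beside the wild-type marks with it, Sox10, Foxd3 and Fabp7 keep part of their level, and genes of ligands and of other gut cells from Gdnf to Csf1r sit at similar heights on both sides.

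The neuronal cytoskeleton held the largest single difference. Tubb3 (chromosome 8, 123411564 to 123422010), a beta-tubulin used by neurons, was at 4.54, 1.23 and 0.786 FPKM without Ret and 47.4, 56.7 and 56.8 FPKM with it, a difference of -4.69. Stmn3, a stathmin that regulates microtubules in neurites, was at 0.801, 0.139 and 0.0856 FPKM against 16.01, 21.8 and 18.1 FPKM. Prph, the intermediate filament peripherin of peripheral neurons, was at 3.63, 1.28 and 1.54 FPKM against 23.1, 32.8 and 25.4 FPKM. Female 2 was the highest of the 3 libraries without Ret for each of these genes. The neurofilament gene Ina was at 0.126 to 0.798 FPKM against 8.93 to 9.85 FPKM. Of 24 counted members of this list 17 were lower by the 2-fold rule and 22 without overlap, with a median of -1.62.

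Some neuronal genes of this list and others stayed well above 0 without Ret. Gap43, a growth cone protein, held 11.9, 6.30 and 5.74 FPKM without Ret against 41.1, 53.1 and 40.6 FPKM. Stmn2, a stathmin of growing axons, held 11.9 to 14.46 FPKM against 33.9 to 43.2 FPKM. Uchl1, the ubiquitin hydrolase PGP9.5 that serves as a pan-neuronal stain in gut, held 14.8, 8.29 and 8.21 FPKM against 45.0, 53.2 and 47.7 FPKM. Which cells carry the remaining RNA was not tested.

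Among neuronal RNA-binding proteins 4 of 7 counted genes were separated, with a median of -1.08. Elavl4, a Hu protein detected by the HuC/D antibodies that stain enteric neurons, stood at 0.565, 0.358 and 0.565 FPKM without Ret and at 10.4, 7.23 and 9.60 FPKM with it. Elavl3 was at 0.0805 to 0.213 FPKM against 4.66 to 5.94 FPKM and Celf3, a regulator of neuronal splicing, at 1.40 to 1.53 FPKM against 14.01 to 16.5 FPKM. Elavl2 differed least (0.587 to 1.03 against 2.23 to 2.81 FPKM).

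Genes that define enteric neurotransmission were low without Ret. Vip, the peptide that relaxes gut muscle, was at 0.360, 0.0488 and 0 FPKM without Ret and at 4.11, 3.41 and 4.28 FPKM with it. Gal, the neuropeptide galanin, was listed at 0 in female 2 and at 0.260 and 0.648 FPKM in males 2 and 3, against 5.44, 8.41 and 4.45 FPKM. Cartpt, the precursor of the CART peptide, was at 0.641, 0.384 and 0 FPKM against 8.85, 13.1 and 10.2 FPKM. The neuropeptide list had 5 of 8 counted members separated and a median of -1.31; Cck and Nxph4 were the other 2, and Penk, the enkephalin precursor, overlapped (9.56 to 15.1 against 12.52 to 15.3 FPKM).

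Cholinergic genes followed the same order. Slc18a3, which loads acetylcholine into vesicles, was at 0.464 FPKM in female 2 and listed at 0 in males 2 and 3, against 2.28, 3.46 and 3.55 FPKM. Ache, acetylcholinesterase, was at 1.21, 0.784 and 0.724 FPKM against 3.10, 3.30 and 3.93 FPKM. Slc18a2, the vesicular monoamine transporter, completed the 3 of 7 counted transmitter enzymes and transporters that were separated (median of the list -0.76). Chat (at most 0.0915 FPKM without Ret against 0.670 to 0.838 FPKM) and Nos1, which makes nitric oxide in inhibitory neurons (at most 0.0492 against 0.359 to 0.777 FPKM), did not overlap either but were below the level needed to be counted. Of the receptors for acetylcholine, Chrna3 stood at 0.117, 0.0222 and 0.136 FPKM against 6.71, 7.65 and 9.12 FPKM, Chrnb4 at 0.109 to 0.308 against 4.82 to 7.41 FPKM and Chrna5 at 0.179 to 0.270 against 1.30 to 2.001 FPKM. Those 3 subunits form the ganglionic nicotinic receptor and lie side by side in the genome, and they were the 3 of 10 counted transmitter receptors that separated (median -0.52).

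Genes of transmitter release and of axon contact were lower in part. Of 26 counted secretogranin and synaptic release genes 10 were separated and 20 were lower without overlap (median -0.70), among them the vesicle calcium sensor Syt1 (0.455 to 0.741 against 4.03 to 7.05 FPKM) and the fusion protein Snap25 (0.405 to 0.963 against 4.09 to 4.77 FPKM). Of 14 counted voltage-gated channel genes 2 were separated, among them the sodium channel beta subunit Scn3b (0.121 to 0.844 against 2.97 to 3.65 FPKM). With no minimum size, 4 of the 14 were lower and 1 higher without overlap, and the median of that list was -0.01. Over all genes counted 1.03% were separated, 8.49% were lower without overlap and 6.66% higher. Axon guidance and adhesion genes had a median of 0.07: L1cam, the adhesion molecule of migrating crest cells and axons (0.573 to 1.56 against 7.02 to 9.53 FPKM), Nfasc and Chl1 were separated, while 4 of the 22 were higher without overlap. Slit2, a guidance ligand of mesenchyme, was one of those 4 (15.1 to 15.6 against 9.54 to 13.8 FPKM).

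**Figure D3:**
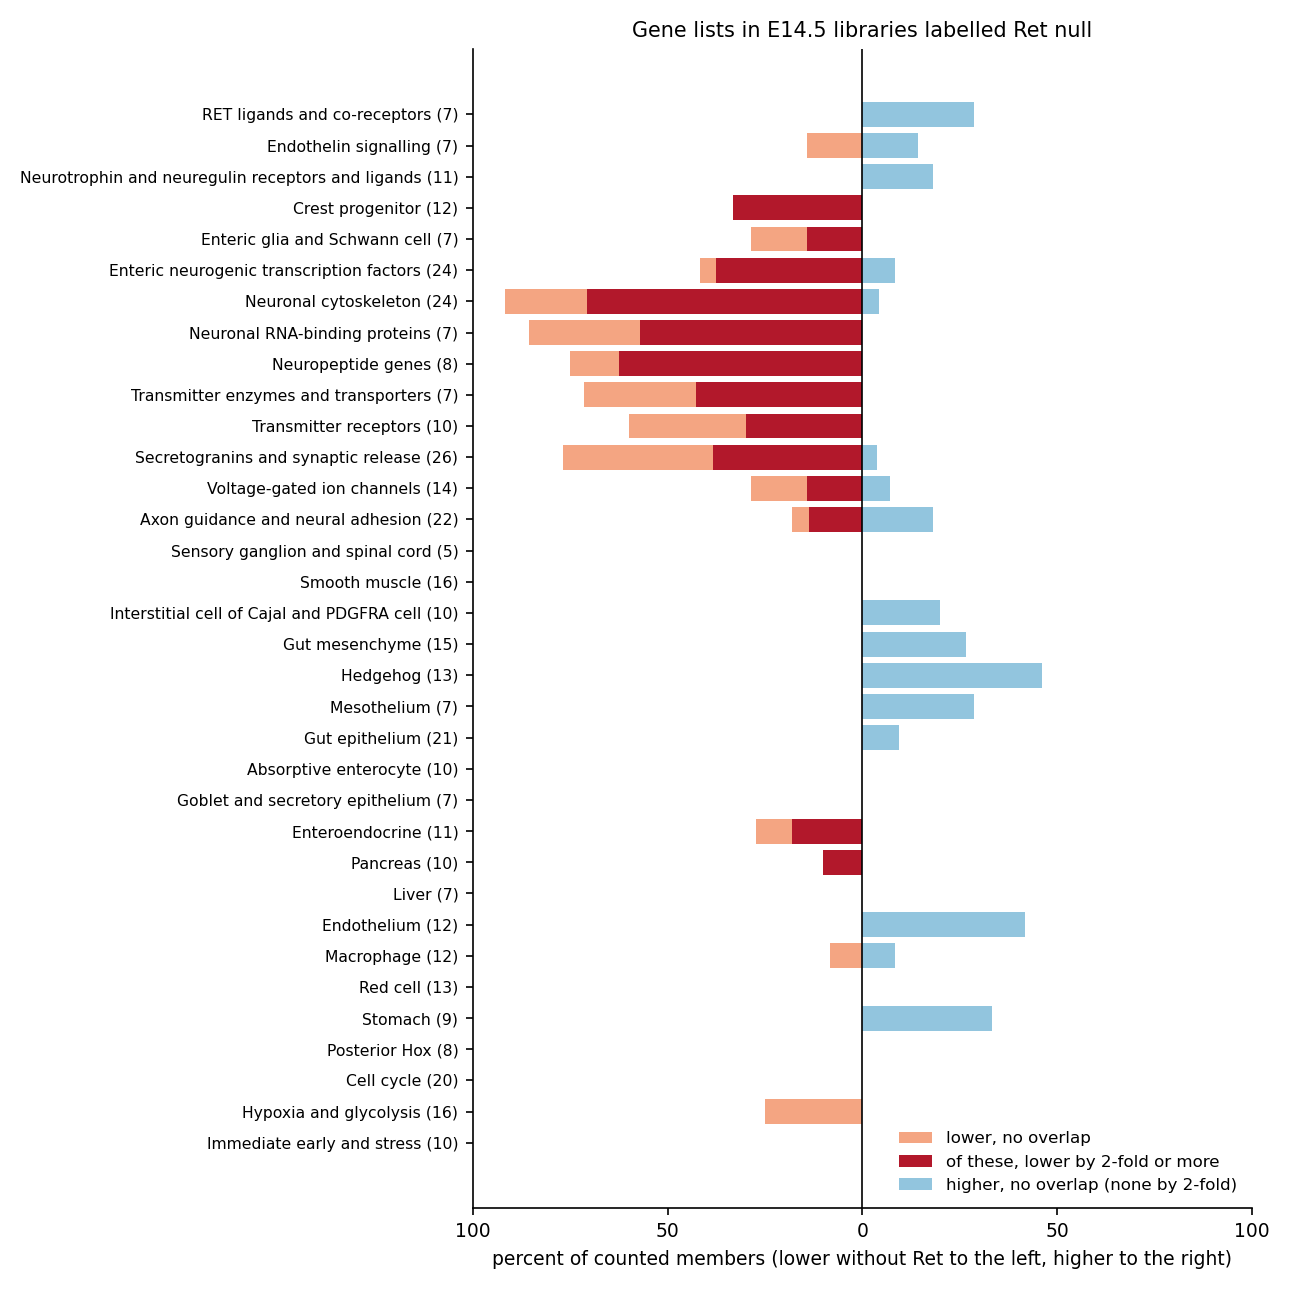
Share of the counted members of each gene list that did not overlap between the 3 libraries without Ret and the 3 with it, for lists with at least 5 counted members (number in brackets). Bars to the left are lower without Ret, with the part lower by 2-fold or more in dark red, and bars to the right are higher; over all genes these shares were 8.49%, 1.03% and 6.66%.

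Of the 136 genes 61 stood in one of the lists used here (60 in a neural list) and 75 in none. Those in no list and far apart included Rtn1, a reticulon abundant in neurons (2.11, 0.746 and 1.07 against 21.9, 24.1 and 23.1 FPKM), and Miat, a long non-coding RNA of nervous tissue (4.97, 2.98 and 2.54 against 26.2, 18.3 and 31.8 FPKM). Hoxd3, singled out after its values were seen, stood at 1.12, 3.501 and 3.39 FPKM without Ret and at 13.1, 12.1 and 13.54 FPKM with it. Here female 2 was the lowest of the libraries without Ret.

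The rest of the gut wall showed no separated gene in most lists. Smooth muscle (16 counted members), interstitial cells of Cajal (10), gut mesenchyme (15), gut epithelium (21), endothelium (12), macrophages (12), red cells (13) and cell cycle genes (20) had 0 separated members each. Over all genes counted the share was 1.03%, so 0 in lists of this size is no shortfall. The enteroendocrine list had 2 of 11, Insm1 and Cck. In it 3 of 11 were lower and 0 higher without overlap (8.49% lower over all genes counted), with a median of -0.44. Neurons also express Insm1 and Cck, and which cells account for the difference was not tested. Myh11, smooth muscle myosin, stood at 112, 162 and 168 FPKM without Ret and 125, 129 and 171 FPKM with it; the epithelial adhesion molecule Epcam stood at 105, 137 and 138 FPKM against 133, 126 and 140 FPKM. Kit, the receptor of interstitial cells, was slightly higher without Ret at 18.6, 21.1 and 22.5 FPKM against 18.1, 15.1 and 18.5 FPKM, and the endothelial Pecam1 likewise at 26.0, 28.1 and 27.3 FPKM against 25.4, 25.7 and 24.8 FPKM. Csf1r of macrophages overlapped (7.95, 8.80 and 9.31 against 7.57, 10.2 and 8.28 FPKM).

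The Hedgehog, endothelium and gut mesenchyme lists leaned to the higher side, all by under 2-fold. Over all genes counted, 6.66% were higher without overlap. Hedgehog signalling, by which epithelium instructs the surrounding mesenchyme, had 6 of 13 counted members higher without overlap, among them the receptor component Smo (52.6 to 58.0 against 48.8 to 52.5 FPKM) and the transcription factor Gli3 (13.2 to 14.7 against 9.80 to 11.9 FPKM). Endothelium had 5 of 12 and gut mesenchyme 4 of 15, including Barx1, a homeobox gene of stomach mesenchyme (43.3 to 51.0 against 36.3 to 38.8 FPKM). Medians of these lists were 0.22, 0.13 and 0.16 on the log2(FPKM + 1) scale. Rest, which encodes a repressor of neuronal genes outside the nervous system and was singled out after its values were seen, stood at 12.8, 12.46 and 12.6 FPKM without Ret and at 8.71, 7.05 and 11.1 FPKM with it. Epha3, an ephrin receptor, was also higher (9.22, 8.81 and 7.94 against 6.37, 5.199 and 5.41 FPKM).

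Neighbouring tissues differed between single libraries rather than between the sides. Alb, the main liver RNA, was at 0.743, 12.1 and 9.22 FPKM without Ret and at 38.5, 1.99 and 7.93 FPKM with it. Summed over the liver list the libraries held 63.4 to 130 FPKM against 78.7 to 206 FPKM, and the pancreas list 146 to 305 against 225 to 412 FPKM. One pancreatic gene was separated, Ins2 (6.89, 8.65 and 7.01 against 9.91, 16.5 and 20.03 FPKM), and it no longer was when female 2, female 3 or male 1 was left out. The exocrine enzyme Prss1 was under 1 FPKM in all 6. Th, the rate-limiting enzyme of catecholamine synthesis and a marker of sympathetic neurons, was lower without Ret (0.395, 0.4995 and 0.256 against 1.36, 0.958 and 0.745 FPKM) at levels too low to be counted in the separation. The sympathetic and chromaffin list summed to 14.499 to 19.6 FPKM without Ret and to 16.3 to 33.5 FPKM with it, and of 9 members none was at 0 in all 6 libraries; its part in the neuronal differences was not tested.

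The 3 libraries without Ret did not form a uniform set. Female 2 was the highest of them, ties included, in 105 of the 136 genes, male 2 in 16 and male 3 in 19. These places were not counted over all genes. The excess was mostly small: the ratio of female 2 to the higher of males 2 and 3, on FPKM + 1, had a median of 1.13 over the 136 genes. Female 2 also held more of some RNAs than any of the other 5 libraries. These genes were picked after their values were seen. Mab21l1, a gene of neural and craniofacial development, was at 12.8 FPKM there, at 0.176 and 0.0927 FPKM in males 2 and 3, and at 5.47 to 5.79 FPKM in the 3 libraries with Ret. Isl1, a LIM homeobox factor of motor, sensory and autonomic neurons, was at 30.8 FPKM in female 2 and at 7.88 to 11.96 FPKM in the other 5. Twist1, a mesenchymal factor, was at 39.3 FPKM against 5.39 to 6.18 FPKM, and Hoxd13, a marker of the hind end of the trunk, at 19.4 FPKM against 0 to 7.08 FPKM. Tac1, the substance P precursor (5.39 FPKM against at most 1.17 FPKM), Dlx5 (4.33 against at most 1.41 FPKM) and the skeletal muscle factor Myog (6.41 against at most 1.26 FPKM) were likewise highest in female 2. What tissue female 2 holds in addition was not tested.

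Wild-type ranges are given for the 136 genes as a description, since these genes were chosen for being low without Ret and high with it. Except for that of wild-type male 2, the counts below were not made over all genes counted, so nothing is read from their size. In 123 of the 136 genes all 3 libraries without Ret lay below all 6 wild-type libraries. In 64 genes all 3 libraries with Ret lay within the wild-type range, in 7 they were all above it and in 0 all below it. Their median exceeded the wild-type median in 99 genes. The low end of the wild-type range was often set by 1 library: wild-type male 2 was the lowest of the 6 in 118 of the 136 genes (86.8%), against 21.3% of all genes counted. Without it, the libraries without Ret lay below all other wild-type libraries in 133 genes, and all 3 libraries with Ret lay within the range in 55. Among the 7 genes above the range were Pttg1, a securin of dividing cells (25.2 to 42.2 against 14.4 to 20.1 FPKM in wild type), and Fstl5 (2.19 to 2.65 against 0.663 to 1.29 FPKM), both named after their values were seen.

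A targeted allele can carry sequence from its flanks, so genes close to Ret were counted separately. Within 10 Mb of Ret on either side 139 other genes were counted, of which 1, Lhfpl4 (chromosome 6, 113168087 to 113195384), was separated at 0.256, 0.128 and 0.104 FPKM without Ret against 1.4828, 1.45 and 1.86 FPKM. Over all genes counted the share separated was 1.03%, so 1 of 139 is no excess. Within 2 Mb none of 25 was. The median difference over the 139 genes was 0.02.

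Because many neuronal genes were lower together, promoters were searched for the RE1 element, the sequence to which the REST repressor binds, taken as CAGCACC and GGACAG 2 bases apart with at most 2 mismatches in these 13 letters, on both strands. RefSeq promoters (GRCm38.p6, 250 bases before to 50 after the start) were found for 97 of 135 separated genes other than Ret. A match was present in 5 of the 97 (5.16%), in 2.41% of promoters of the other counted genes and in 1.92% of all 32851 promoters. At most 1 mismatch left 2 genes (2.06% against 0.187% of the other counted genes), and at most 3 mismatches gave 17 (17.5% against 19.2%). The E-box CAGCTG, a letter string to which proneural factors bind, was present in 22 (22.7%) against 18.1% and 16.3%. A match in these letters is a description of the sequence and not evidence of binding.

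Of the 5 matches 4 are printed to show what a match looks like, taken by fewest mismatches and then by largest difference between the sides (Kif1a, also with 2 mismatches, is the one left out), with the 15 matched bases in capitals and each sequence read 5′ to 3′ on the strand of the gene. Ttc9b (chr7:27653934-27653963, plus strand, no mismatch, match on the opposite strand) and Tub (chr7:109010897-109010926, plus strand, 2 mismatches) match just after the start site. Syn1, the synaptic vesicle protein synapsin (chrX:20921074-20921168, minus strand, 1 mismatch), and Prph (chr15:99054942-99055076, plus strand, 2 mismatches) match before it.
Ttc9b: gcggcgcgCTGTCCCCGGTGCTGatgctca
Syn1: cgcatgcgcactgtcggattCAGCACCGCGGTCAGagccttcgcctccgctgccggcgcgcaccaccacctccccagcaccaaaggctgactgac
Prph: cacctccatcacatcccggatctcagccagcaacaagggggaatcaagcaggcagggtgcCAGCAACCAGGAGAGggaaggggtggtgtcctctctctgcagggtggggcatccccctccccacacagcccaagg
Tub: cccgagcgCTGCACCGCGCACAGacaaccg
On the log2(FPKM + 1) scale these genes differed by -1.25 (Ttc9b, listed at 0 in all 3 libraries without Ret), -1.13 (Syn1), -3.38 (Prph) and -1.20 (Tub) between the sides.

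At E12.5 none of the separated genes passed the test between gut labelled Ret null and wild type when every sample was kept. The question was whether genes that separate the E14.5 libraries differ with the labelled genotype in libraries that the split did not use. With limma and Benjamini-Hochberg adjustment, 1 of 13182 genes (0.00759%) was lower in E12.5 gut carrying the null label and 0 were higher (375 lower and 740 higher at an unadjusted p under 0.05). The 1 was the microRNA gene Mir3096b (limma adjusted p = 0.0389). It held 9.22 ± 6.50 FPKM (mean ± SD over all 6 libraries, females 1 and 2 each counted) in wild type and 0 in all 6 labelled null. Of 120 separated genes other than Ret that were tested at E12.5, 0 were called, 110 had a negative log2 fold change, and 58 (48.3%) were lower at an unadjusted p under 0.05, against 2.85% of all genes tested. Their median log2 fold change was -0.50, against 0.01 for all genes tested. Without wild-type females 1 and 2, which hold RNA of both sexes, 2 genes were called lower, and 0 of the separated genes other than Ret were among them.

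The E12.5 libraries labelled Ret null also differed among themselves. Male 2 held 6.12 FPKM of Ret and the other 5 held 0.0151 to 0.0451 FPKM. Tubb3 stood at 1.21, 10.06 and 12.4 FPKM in females 1, 2 and 3 and at 5.59, 28.3 and 0.593 FPKM in males 1, 2 and 3, against 21.3 to 44.2 FPKM in wild type. Male 2 alone lay in the wild-type range for this gene. It was the highest of the 6 in 108 of the 136 genes (Ret among them), or 79.4%, against 20.3% of all genes counted. Male 2 was singled out by its measured Ret, so the fit without it is a description and not a test by label. Without male 2, limma called 34 of 13121 genes lower (0.259%), of which 22 were among 118 separated genes other than Ret that were tested. Ret itself, by which male 2 was singled out, was also among the 34. Sox10 then stood lower by a log2 difference of -1.86 (SE 0.24, limma adjusted p = 0.0198). Dlx2, Chrna3, Chrnb4, Gal, Cartpt, Cck, Elavl4, Ina, Foxd3, Sox8 and Chl1 were called too, as was Mab21l1, which is outside the 136. Tubb3 (-2.66, SE 0.57, limma adjusted p = 0.210) was not called. Leaving out any other single sample called at most 1 separated gene other than Ret.

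**Figure D4:**
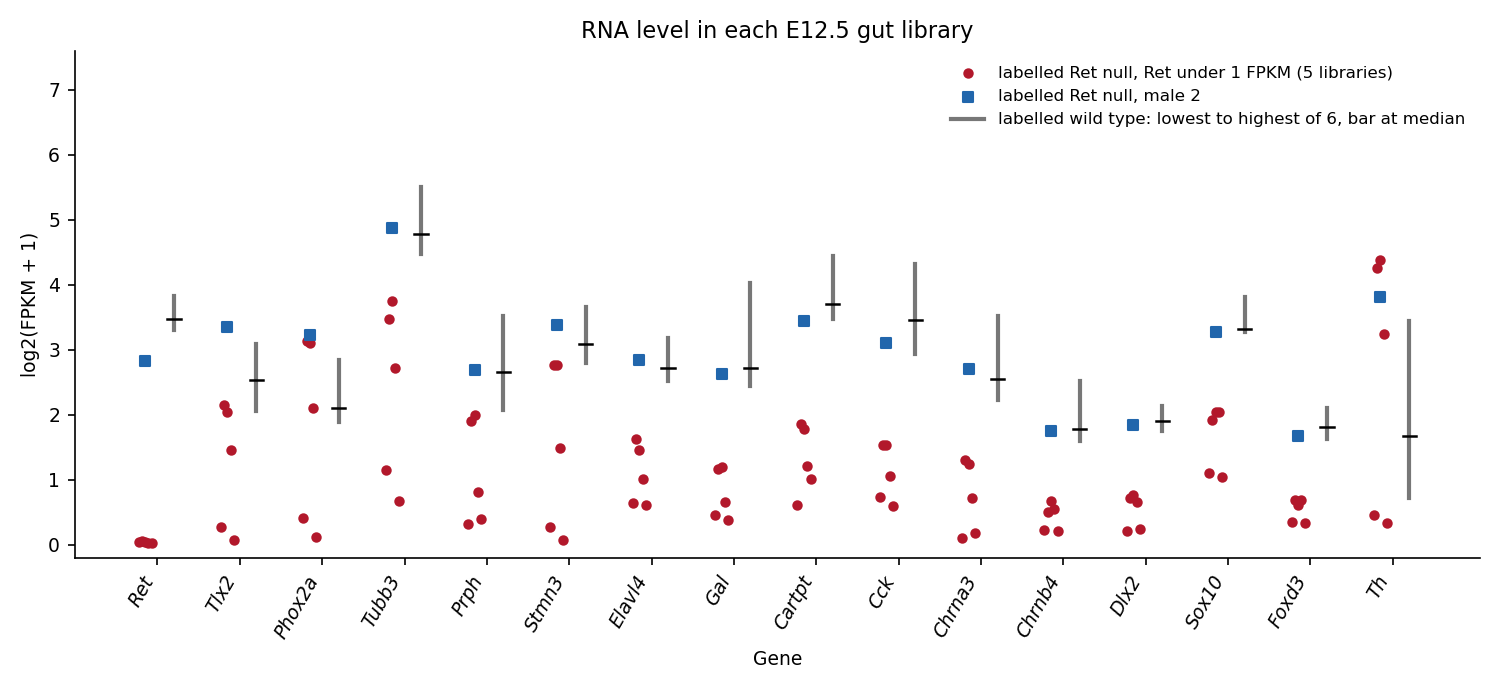
Level of 16 genes as log2(FPKM + 1) in each E12.5 library labelled Ret null (circles, 5 libraries with Ret under 1 FPKM; square, male 2) beside the lowest, median and highest of 6 wild-type libraries (gray lines with a black bar). Male 2 sits at or near the wild-type line for most genes, the other 5 sit lower and spread, and Phox2a and Th lie above wild type in some of them.

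The 5 E12.5 libraries without Ret also differed in genes of other tissues, sympathetic genes among them. Females 2 and 3 and male 1 held 18.1, 19.7 and 8.48 FPKM of Th, and female 1 and male 3 held 0.381 and 0.268 FPKM, while wild type held 0.645 to 9.87 FPKM. Phox2a, which sympathetic neurons share with enteric ones, was at 7.83, 7.602 and 3.31 FPKM in the first 3 and at 0.330 and 0.0862 FPKM in the other 2, against 2.69 to 6.196 FPKM in wild type. Summed over 9 sympathetic and chromaffin genes, none of them at 0 throughout, these libraries held 86.1, 96.8 and 58.5 FPKM, against 32.2 and 23.9 FPKM in female 1 and male 3 and 18.01 to 57.2 FPKM in wild type; male 2 held 87.4 FPKM. Other lists differed between the same libraries. In females 2 and 3 and male 1 the macrophage list summed to 121, 129.9 and 83.3 FPKM, against 64.9 and 60.9 FPKM in female 1 and male 3, and the endothelium list to 197, 208 and 199 FPKM against 144 and 133 FPKM. The liver list reached 1088 and 1040.1 FPKM in females 2 and 3 and 87.2 to 227 FPKM in the other 3. The stomach list ran the other way, at 17.9, 20.8 and 99.4 FPKM against 141 and 142 FPKM. The part of any of these tissues in the E12.5 levels of neuronal genes was not tested.

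In wild type more of the separated genes rose than fell between E12.5 and E14.5, but they were chosen at E14.5, where each had to reach 1 FPKM, and the genes tested as a whole were not. Nothing is read from the difference between these shares. Of 135 separated genes other than Ret, 49 (36.3%) were higher at E14.5 and 6 (4.44%) lower by limma, against 3998 (28.9%) and 3518 (25.4%) of 13827 genes tested, and their median log2 fold change was 0.34. Means and SDs here are over all 6 libraries of a stage, with E12.5 females 1 and 2 each counted, unlike in the fit. Vip rose from 0.591 ± 0.190 FPKM (mean ± SD, n = 6) to 4.05 ± 1.43 FPKM (n = 6). Its change on the log2 scale was 1.63 ± 0.19 (SE) with limma's adjusted p = 0.000135. For Prph the mean was 5.58 ± 2.61 FPKM at E12.5 and 27.5 ± 9.64 FPKM at E14.5 (log2 change 2.06, SE 0.29, adjusted p = 0.00033), and for Ache it was 1.21 ± 0.242 and 4.36 ± 1.52 FPKM (log2 change 1.22, SE 0.19, adjusted p = 0.000499). Mapt, the axonal microtubule protein tau (1.36), Rtn1 (1.02), Ina (1.01), L1cam (0.84), Stmn3 (0.73) and Phox2a (0.66) rose as well. Ins2, the insulin gene outside the nervous system, rose most (4.93).

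Cck (-1.60, SE 0.33, adjusted p = 0.00257), Cartpt (-0.85, SE 0.18, adjusted p = 0.00269), Elavl2 (-0.50) and Foxd3 (-0.42) were among the 6 that fell. Sox10 (-0.24, adjusted p = 0.398) and Elavl4 (-0.01, adjusted p = 0.952), which both separate the E14.5 libraries, did not pass the test for stage. Depth went with the stage in this comparison. Scaled to a common upper quartile, 3035 genes were higher and 5102 lower (37.3% of calls higher, against 53.2% as deposited), the median over all genes moved from 0.02 to -0.10, and 39 separated genes rose and 10 fell. Leaving out E14.5 wild-type male 2, the library with the lowest neuronal values, gave 78 rising separated genes in place of 49, and leaving out E12.5 wild-type female 3 gave 3 falling ones in place of 6. Without E12.5 wild-type females 1 and 2, 36 separated genes rose and 5 fell.

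**Figure D5:**
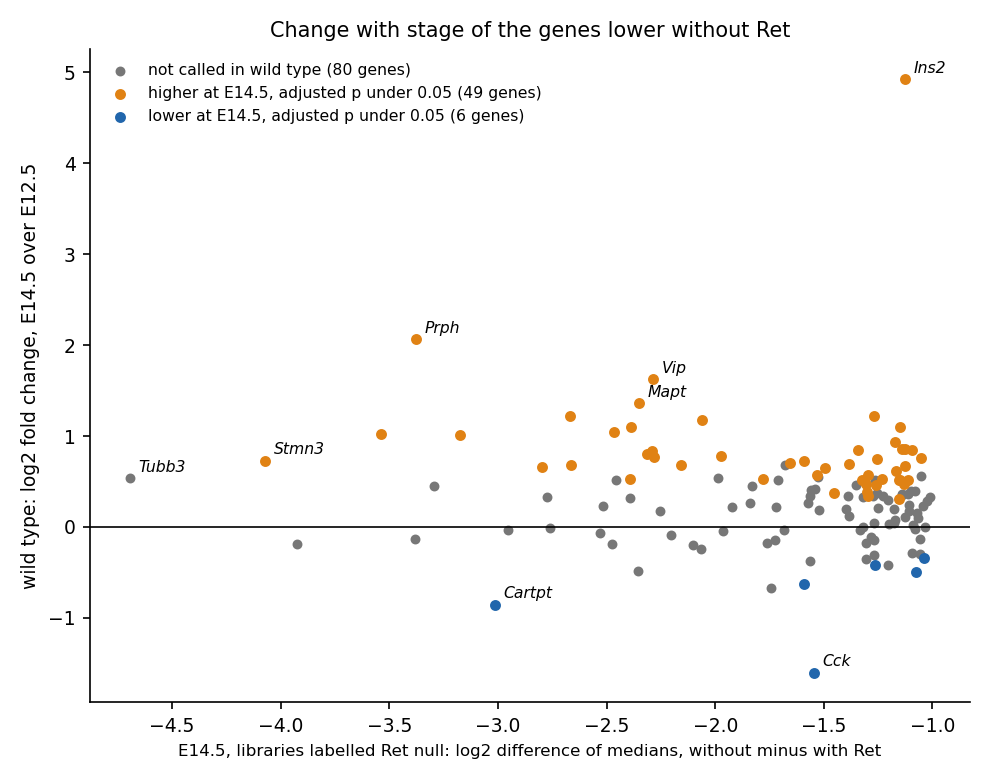
Log2 fold change from E12.5 to E14.5 in wild type (vertical axis, 5 against 6 samples) against the log2 difference between E14.5 libraries without and with Ret (horizontal axis) for 135 separated genes. Genes called higher with stage (orange, 49) include Prph, Vip and Stmn3, those called lower (blue, 6) include Cck and Cartpt, and 80 in gray, with Tubb3 among them, were not called.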

How the data were processed

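RNA was taken from dissected mouse gut, poly(A) RNA was primed with oligo dT and TruSeq libraries were sequenced as paired ends, per the labels' protocols. The deposited values are gene-level FPKM with confidence intervals from Cufflinks, per the file headers, for 23847 gene entries. The submitters' processing notes name Picard, TopHat2, Cufflinks, Cuffdiff and the mm10 build, with no version or setting. No read counts were used, so depth was inferred from the width of the authors' intervals and no count model was fitted. FPKM depends on the total of each library, so a few very abundant genes can shift all others.

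From these files log2(FPKM + 1) was computed. At E14.5, a gene was counted when at least 3 of the 6 null-labelled libraries reached 1 FPKM and all 6 had an OK status. The split uses measured Ret, so it got no test. The E12.5 genotype comparison and the wild-type stage comparison used limma 3.58.1 in R 4.3.3 with group means for sex, a mean-variance trend, two-sided p-values and Benjamini-Hochberg adjustment over all genes tested at 0.05. Fold changes are on the log2(FPKM + 1) scale, which understates low genes. E12.5 wild-type females 1 and 2 differed by 1.085 times the counting noise, with 0.712% of genes beyond 3 SD, under the limits of 1.1 times and 1% set for such pairs, and were counted as 1 sample, so those fits had 11 samples. Nothing in the labels says that replicates came from separate embryos, so p-values reflect only how much these samples vary, possibly for technical reasons.

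The members and the 38 gene lists were chosen with earlier results of these data known. Named genes were Ret, up to 12 separated genes per direction with the largest difference, up to 5 per list, and a set of markers given whatever their values; other members of a list are named as examples, and genes outside the rule are said to be so. Some genes that the rule names are not reported here, though counts over lists include them. Alternatives were other pseudocounts (0.1 and 0.5), no filter on low values, upper-quartile scaling, other separation rules, genes of any status, each library left out, a replicate block and, chosen after seeing the data, males 2 and 3 averaged. Scripts were tested on simulated data. Python 3.11.15 with numpy 2.4.6, pandas 2.3.3 and matplotlib 3.10.9 was used.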

Additional observations from a re-analysis of the deposited data

Results flagged for a closer look

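In 186 sets of 6 libraries (62 genes, each in E14.5 and E12.5 gut labelled Ret null and in E14.5 wild type), 35 had 1 library so far from the other 5 that its gap to the nearest, as a share of the whole range, passed the limit of Dixon's test for 6 values. Chance gives about 1 in 20 for sets chosen without regard to their values, but many of these genes and libraries were chosen for their values, so the 35 cannot be read against that rate. Of the 35, 18 were E12.5 male 2 labelled Ret null, always as the highest library.

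For the genes of crest cells and their regulators, E12.5 male 2 held 6.12 FPKM of Ret (others at most 0.0451), 9.17 FPKM of Tlx2 (at most 3.44), 8.65 FPKM of Sox10 (at most 3.11), 4.33 FPKM of Sox8 (at most 1.54), 2.19 FPKM of Foxd3 (at most 0.615), 2.57 FPKM of Dlx2 (at most 0.696), 15.6 FPKM of Hoxd3 (at most 6.89) and 3.92 FPKM of Mab21l1 (at most 0.623). For genes of neuronal function it held 3.88 FPKM of Ina, 9.88 FPKM of Cartpt, 5.17 FPKM of Gal, 7.58 FPKM of Cck, 6.21 FPKM of Elavl4, 1.01 FPKM of Slc18a3, 5.53 FPKM of Chrna3, 2.37 FPKM of Chrnb4, 1.12 FPKM of Chrna5 and 0.878 FPKM of Chl1. The highest of the other 5 libraries for those genes were 1.30, 2.63, 1.29, 1.90, 2.10, 0.370, 1.47, 0.593, 0.457 and 0.413 FPKM in that order.

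Among the E14.5 libraries labelled Ret null, female 2 stood far above the other 5 in 6 genes that had been picked for this: Twist1 (39.3 FPKM), Isl1 (30.8 FPKM), Hoxd13 (19.4 FPKM), Myog (6.41 FPKM), Tac1 (5.39 FPKM) and Dlx5 (4.33 FPKM). Female 1 was far above the others in Alb (38.5 FPKM) and male 1 in Prss1 (0.852 FPKM).

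In E14.5 wild type, male 2 was far below the others in Sox8 (1.24 FPKM), Gdnf (1.89 FPKM) and Gfra1 (7.65 FPKM) and far above them in Pecam1 (46.6 FPKM). Wild-type female 1 stood out in Alb (1014 FPKM) and Th (14.9 FPKM), female 3 in Twist1 (21.5 FPKM) and male 3 in Gal (6.999 FPKM). At E12.5 labelled Ret null, female 1 held 0.0669 FPKM of Prss1 and the others at most 0.0120 FPKM.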

How the results depend on the processing

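The named separated genes stayed lower without Ret under every alternative run. They were selected for having no overlap, so nearly all of these alternatives could not have reversed them. Only rescaling the libraries could have, so their direction is no sign of robustness. Named genes that were not separated changed sign when single E14.5 libraries were left out (Isl1, Dlx5, Tac1, Myog, Twist1, Hoxd13, Epcam, Csf1r, Alb and Prss1). Upper-quartile scaling turned the stage comparison from 3998 higher and 3518 lower genes to 3035 and 5102, leaving out E12.5 labelled-null female 1 gave 2 higher and 0 lower genes in place of 0 and 1, and at most 3 mismatches put the share of promoters with a match (17.5%) under that of the other counted genes (19.2%). The 136 lower genes at E14.5 became 1126 with absence of overlap alone and 36 at 4-fold, which also dropped 16 of the 40 named separated genes; the 0 higher genes became 884 with absence of overlap alone and 2 with males 2 and 3 averaged. Leaving out each library gave 135 to 167 lower and 0 to 7 higher genes. Among named genes, Ins2 was lost without female 2, female 3 or male 1, Elavl2 and Nxph4 without male 2 or male 3 and with those averaged, and Chl1 without male 1. Near Ret the 1 separated gene became 0 within 2 Mb, 0 at 4-fold and 25 with absence of overlap alone. Of those 25 genes, out of 139 counted, 14 were lower and 11 higher, where all genes counted gave 8.49% and 6.66%. At E12.5 the 1 lower gene became 0 with every library counted, and leaving out each sample gave 0 to 34 lower and 0 to 2 higher genes (34 without labelled-null male 2, 4 without wild-type female 3, 2 without wild-type females 1 and 2 or without wild-type male 3). For the stage comparison, leaving out each sample gave 3263 to 4052 higher and 2767 to 3599 lower genes. Promoter matches numbered 2 with at most 1 mismatch (2.06% against 0.187% of the other counted genes) and 17 with at most 3.

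Replicate numbers did not pair the samples: 4 of 12 E12.5 libraries and 3 of 12 wild-type libraries correlated best with their own number. With the replicate block the E12.5 fit called 0 genes lower, and the stage fit called 4306 higher and 3819 lower. The shallow E14.5 libraries limit what can be said of genes under 1 FPKM.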
